A study of Mus musculus with 2 samples.

Results

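Il1a, Il1b, Il1rn, Il18, Nlrp3, Casp1, Tnf and Il6 were followed across the leukocytes of the mouse adrenal gland. These 8 genes, of 32285 in the count tables, are a list of interleukin-1 (IL-1) family cytokines and their antagonist, the parts of the NLRP3 inflammasome that act on them, tumor necrosis factor (TNF) and interleukin-6 (IL-6), and they were chosen by name and not by their level. The samples were live CD45+ cells sorted from the adrenals of C57BL/6 mice aged 7 weeks. Females gave 1 droplet single-cell RNA library and males gave 1. Tissue was digested for 30 minutes at 37 degrees before sorting, and the number of mice behind each library is not given in the sources used here. Because each sex is represented by 1 library, nothing was replicated, every ratio below compares these libraries rather than the sexes, and no p-value is given.

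IL-1 alpha and IL-1 beta act on the same receptor and start fever, endothelial activation and the recruitment of neutrophils, and the antagonist encoded by Il1rn occupies that receptor without signaling. IL-1 beta and IL-18 are made as inactive precursors, and caspase-1, activated on an inflammasome that NLRP3 can seed, cuts them into their active forms, so an mRNA level does not tell how much active cytokine is released. In the adrenal gland, IL-1, TNF and IL-6 are known for acting on steroid-producing cells and on the stress axis during inflammation.

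The female library held 16218309 UMIs (unique molecular identifiers, each standing for 1 captured mRNA molecule) over 3963 barcodes, and the male library 9512670 over 2685. Filters left 3694 female and 2449 male cells. Their median depth was 3489.5 and 3008 UMIs, and the libraries shared 2 barcodes. Clusters built without the 8 genes were named from marker genes, 20 of 22 clusters in 17 classes, and each class name below stands for cells like that type. Neutrophil-like cells expressed all 6 of their markers. A second naming by a marker gate also named 5150 of the 5892 cells in these classes, and gave 4786 of them the same class. Among these were 95 of the 97 neutrophils but only 94 of the 265 Lyve1-high macrophages. The macrophages comprised a Lyve1-high cluster (97 female and 168 male cells), an Aldh1a2-high cluster (88 and 100 cells) and 3 further clusters led by Tmem119, Cxcl14 and Mmp12, which together are called other macrophages (637 and 530 cells). The gate took these 3 as 1 class and does not bear on their split.

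All 8 genes were located in the GENCODE M21 annotation of the mouse genome build GRCm38. Il1b (chr2:129364570-129371139) and Il1a (chr2:129299610-129309972) lie near each other on the minus strand of chromosome 2, and Il1rn (chr2:24336853-24351494, plus strand) lies far from them on the same chromosome. Il18 (chr9:50554827-50581840, plus strand) and Casp1 (chr9:5298517-5307265, plus strand) share chromosome 9. Nlrp3 is at chr11:59541568-59566956 (plus strand), Tnf at chr17:35199381-35202007 (minus strand) and Il6 at chr5:30013114-30019981 (plus strand). Il1a overlaps Gm14023, Il1b overlaps Il1bos, and Il18 overlaps Bco2 and Tex12, all on the opposite strand. The sources used here do not state whether the counting used strand. The overlapping genes held few UMIs of their own over all cells, 22 in the female and 9 in the male library for Gm14023, 5 and 6 for Il1bos, 12 and 14 for Bco2, and 2 and 0 for Tex12.

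The promoters of the 8 genes were compared because their levels differed so widely between classes. RefSeq sequences of build GRCm38.p6 were found for all 8 genes, and the 250 bases before each transcription start are considered here. The 8 genes had 11 such windows, with 3 for Il1rn and 2 for Nlrp3. A gene counted as having a motif if any of its windows did, whereas the percentages below are per window. The TATA box, where the basal transcription machinery docks, was searched as TATAAA on both strands. It was present in 12.4% of the 32851 promoter windows in the table, and in those of Il1a, Il1b, Il18 and Tnf. At 25 to 35 bases before the start and on the strand of the gene, it was found in 1.75% of all windows and in 3 of the 8 genes, starting 32 bases before the start in Il1a, 31 in Il1b and 29 in Tnf. GAGGAA, a core that the myeloid factor PU.1 can bind, was present in 23.3% of windows on either strand, and in those of Il1a, Nlrp3, Casp1 and Tnf. The AP-1 motif TGANTCA was present in 6.75% of windows, and in those of Il1a, Il1rn and Il6, and the NF-kB motif in 7.25%, and in those of Nlrp3 and Il6. The 4 sequences below, printed 5' to 3' along each gene, show promoters with and without a TATAAA near the start for genes of narrow and broad distribution, and capitals mark TATAAA or GAGGAA read on either strand (TTTATA and TTCCTC are their reverse complements).
Il1b, chr2:129371140-129371389, minus strand: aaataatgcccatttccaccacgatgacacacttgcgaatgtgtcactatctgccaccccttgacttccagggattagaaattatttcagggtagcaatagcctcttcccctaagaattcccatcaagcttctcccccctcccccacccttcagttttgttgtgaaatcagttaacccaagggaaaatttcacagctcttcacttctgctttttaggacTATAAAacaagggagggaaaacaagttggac
Tnf, chr17:35202008-35202257, minus strand: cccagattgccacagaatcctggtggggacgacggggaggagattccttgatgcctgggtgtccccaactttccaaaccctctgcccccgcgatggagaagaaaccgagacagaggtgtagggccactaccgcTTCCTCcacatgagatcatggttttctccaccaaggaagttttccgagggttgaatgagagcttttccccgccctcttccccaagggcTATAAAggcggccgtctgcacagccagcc
Casp1, chr9:5298267-5298516, plus strand: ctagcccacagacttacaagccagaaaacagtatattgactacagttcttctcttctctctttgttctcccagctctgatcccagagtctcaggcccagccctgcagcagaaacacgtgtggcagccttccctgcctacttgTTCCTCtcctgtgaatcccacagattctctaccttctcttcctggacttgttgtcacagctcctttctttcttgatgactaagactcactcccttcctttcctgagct
Il18, chr9:50554450-50554699, plus strand: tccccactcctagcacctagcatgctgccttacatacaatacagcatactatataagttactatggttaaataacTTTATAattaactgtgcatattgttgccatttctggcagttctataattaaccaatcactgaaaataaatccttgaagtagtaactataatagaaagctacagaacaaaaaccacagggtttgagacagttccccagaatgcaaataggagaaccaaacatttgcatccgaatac
The Il18 window ends at a RefSeq start that differs from the start in the annotation above. A match describes letters in these windows only, and no binding was measured in these samples.

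Il1b was the most abundant of the 8 genes over all cells in both libraries, and its level differed widely between classes. Levels are given as CPM, the UMIs of a gene summed over the cells of a class per 1000000 UMIs of that class, with 95% exact Poisson intervals that cover counting error only, as do all intervals here. In neutrophils Il1b stood at 6663 CPM in the female library (6118 to 7242, from 552 UMIs) and at 5856 CPM in the male library (5364 to 6381, from 521 UMIs). Among macrophages, the Mmp12-led cluster stood at 253.9 and 280.6 CPM, followed by Tmem119-led macrophages at 191.7 and 236 CPM and Cxcl14-led macrophages at 96.1 and 99.5 CPM. Between the neutrophils and every other class the intervals did not overlap in either library.

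In monocytes the Il1b level differed between the libraries. Nonclassical monocytes held 149.6 CPM (27 UMIs) in the female and 337.5 CPM (48 UMIs) in the male library, and classical monocytes 32.6 CPM (25 UMIs) and 185.2 CPM (82 UMIs). In the male library the nonclassical monocytes therefore ranked next to the neutrophils, with an interval (248.9 to 447.5) that overlapped those of the Mmp12-led and Tmem119-led macrophages. In the female library their interval (98.6 to 217.6) overlapped those of the Tmem119-led and Cxcl14-led macrophages, and classical monocytes (21.1 to 48.1) lay below all 3 of these macrophage clusters.

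At the lower end, Lyve1-high macrophages held 12.3 CPM of Il1b (3 UMIs) in the female and 15.3 CPM (6 UMIs) in the male library. This was below the level of the other macrophages, 187.9 CPM (172.3 to 204.5) and 215.9 CPM (196.9 to 236.2), with no overlap of intervals (2.54 to 36.0 and 5.61 to 33.3 in Lyve1-high macrophages). Type 1 dendritic cells, which cross-present antigen, held 1 and 3 Il1b UMIs. Plasmacytoid dendritic cells and the mast cell and basophil class held none in either library, which allows up to 39.6 and 147.7 CPM in the former and 46.5 and 188.4 CPM in the latter (the level of 3 UMIs). In the male library both limits lie below the level of other macrophages but near that of classical monocytes, so these classes were not placed in the order. B cells stood at 2.83 and 2.79 CPM, T cells at 1.04 and 7.78, NK cells at 2.69 and 3.59, and innate lymphoid cells at 2.96 and 4.21, each from 11 UMIs or fewer.

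**Figure D1:**
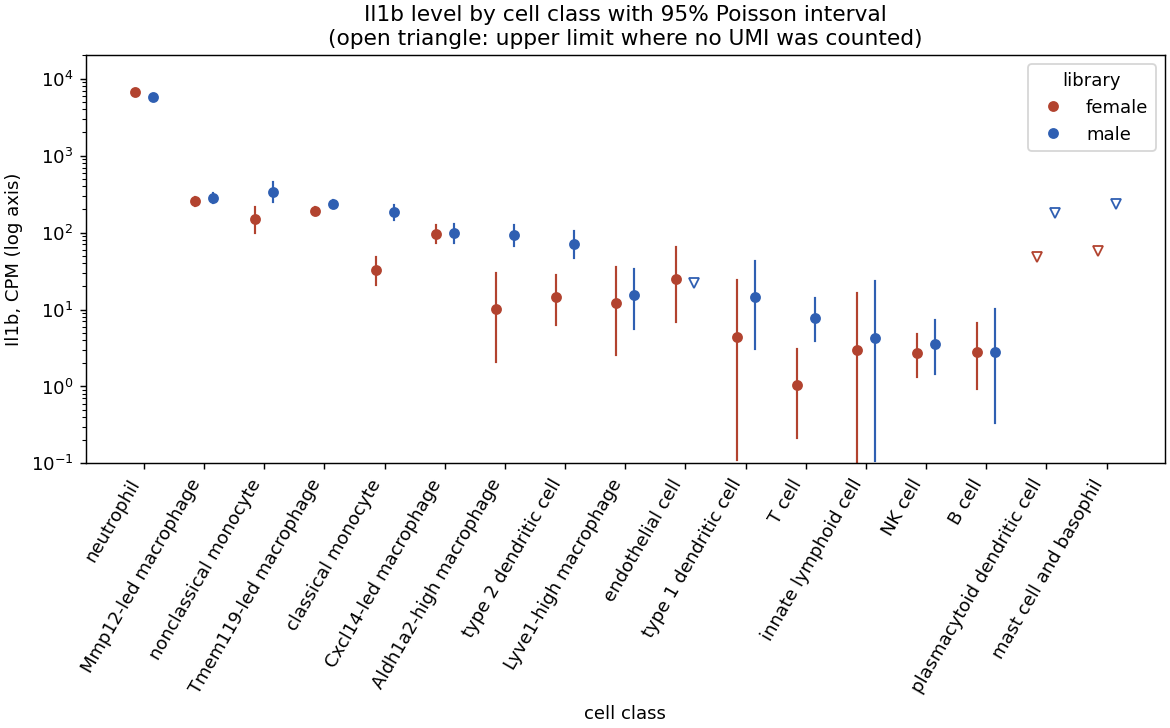
Il1b level in CPM (log axis) in 17 cell classes of the female and the male library, with points for the summed level, bars for the 95% Poisson interval and open triangles for the upper limit where no UMI was counted. Neutrophils stand at 6663 and 5856 CPM, and B, T, NK and innate lymphoid cells lie below 8 CPM.

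A few neutrophils thus carried much of the Il1b mRNA of the sorted cells. Only 1.27% of female and 2.04% of male cells were neutrophils, yet they held 46.5% (43.7 to 49.4%) and 42.3% (39.5 to 45.1%) of all Il1b UMIs, which numbered 1186 and 1233. Other macrophages held 45.2% and 38.6%. Monocytes held 4.38% (3.29 to 5.71%) of the female and 10.5% (8.88 to 12.4%) of the male Il1b UMIs, shares whose intervals did not overlap.

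The distribution over single cells differed between neutrophils and macrophages. Although neutrophils had few UMIs in all (median 1649 and 1654), the median neutrophil held 10 Il1b UMIs in the female and 8.5 in the male library, and the highest 40 and 35. After each cell was thinned at random to 1000 UMIs, 87.5% of female and 85.4% of male neutrophils had at least 1 Il1b UMI (83.0% and 88.0% without thinning). In other macrophages this share was lower, at 9.55% and 11.4% (22.4% and 26.6% without thinning), at a median depth of 3973 and 3517.5 UMIs. B cells, which should lack the gene, had a thinned share of 1.0% and 0% at a median of 2208 and 1744 UMIs, and T cells 0% and 1.41% at 3886.5 and 3704 UMIs.

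Most Il1b UMIs of the other macrophages came from a minority of cells. Cells with at least 5 Il1b UMIs were 34 of 637 in the female library (5.34%, 3.72 to 7.38%) and 23 of 530 in the male library (4.34%, 2.77 to 6.44%), and they held 365 of the 536 and 290 of the 476 Il1b UMIs. They were 18 and 15 Tmem119-led, 13 and 7 Mmp12-led and 3 and 1 Cxcl14-led cells, and the highest held 37 and 36 UMIs. Their median depth was 5218 and 5332 UMIs, above that of all other macrophages, and the part of depth in this count was not tested. Among neutrophils the same threshold was passed by 35 of 47 and 34 of 50 cells, and no Lyve1-high macrophage of either library reached it.

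**Figure D2:**
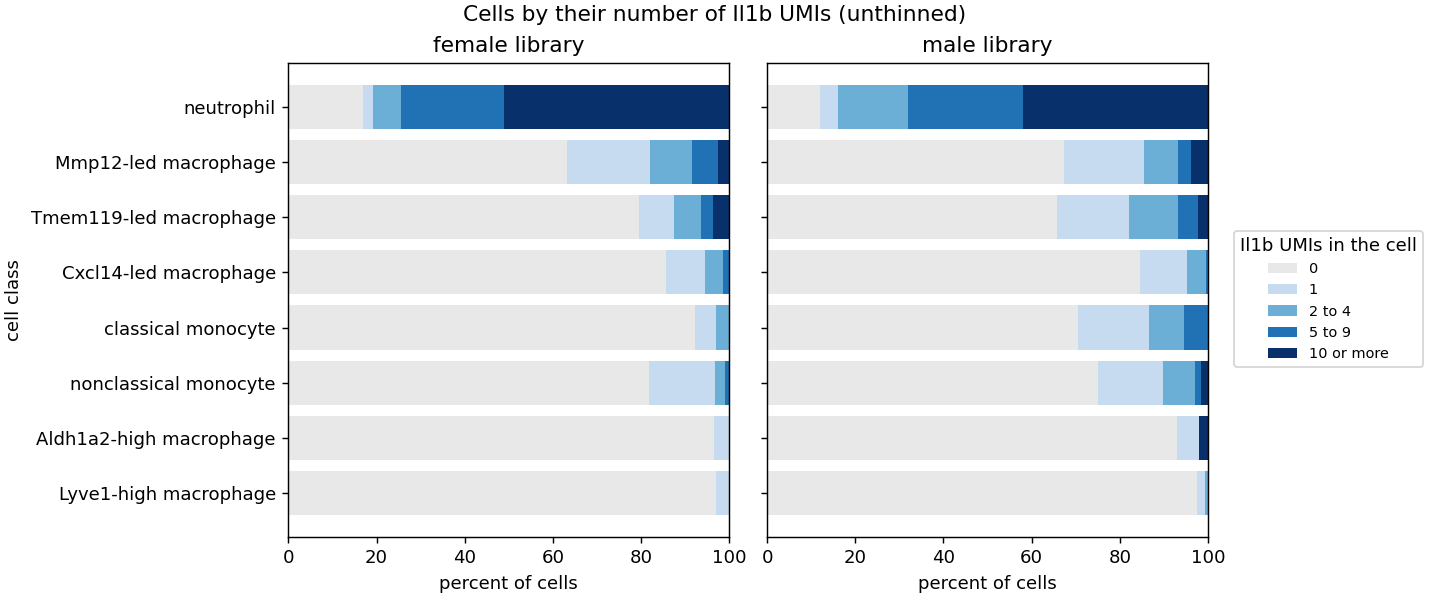
Percent of cells with 0, 1, 2 to 4, 5 to 9, and 10 or more Il1b UMIs, without thinning, in 8 myeloid classes of the female and the male library, as stacked bars that sum to 100. Most neutrophils carry 5 or more UMIs, whereas most macrophages and monocytes carry none.

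S100a8 and S100a9, which neutrophils make in large amounts, were used to set these levels beside free neutrophil RNA. Neutrophils held 24.7 S100a8 and S100a9 UMIs for each Il1b UMI in the female and 22.4 in the male library, while monocytes held 0.346 and 0.154. At the neutrophil proportion, the S100a8 and S100a9 UMIs of the monocytes would carry 0.730 and 0.894 Il1b UMIs, against 52 and 130 counted. In lymphocytes the same reckoning gave 6.98 and 4.61 Il1b UMIs against 20 and 21 counted. In the female Mmp12-led cluster 467 of 475 S100a8 and S100a9 UMIs lay in 1 cell with 5 Il1b UMIs, and in the male Tmem119-led cluster 130 of 144 lay in 1 cell with 4. Without such cells the female to male ratio of Il1b in other macrophages was 0.869, against 0.870 with them.

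Whether females and males differed was the question behind the design of the study, and Il1b was lower in the female than in the male library in monocytes, type 2 dendritic cells and Aldh1a2-high macrophages, and, at a far lower level, in all lymphocytes together, whereas the ratio lay near 1 in neutrophils and other macrophages. A ratio was called when it was at least 2-fold in either direction, its 95% exact interval left out 1, and at least 1 library held 20 UMIs of the gene in the class. Over 11 classes that share no cells, 24 of the 88 pairs of gene and class had enough UMIs, and 6 were called, 5 of them lower and 1 higher in the female library. Over all genes, 3.21% of ratios in these classes were called, 1.45% lower and 1.76% higher in the female library. Without the highest cell of each library, Il1b was no longer called in nonclassical monocytes, type 2 dendritic cells and Aldh1a2-high macrophages. Casp1 in T cells was not called without the highest male cell alone, nor Il1rn in other macrophages without the highest female cell alone.

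In classical monocytes, the Ly6C-positive cells that circulate and enter tissue, the female to male ratio of Il1b was 0.176 (0.108 to 0.278), where 3.73% of 4663 genes were called. The thinned share of cells with an Il1b UMI was 2.04% of female and 16.8% of male cells (7.88% and 29.5% without thinning), at similar median depths of 3486 and 3741 UMIs. No female classical monocyte held 5 or more Il1b UMIs (0 of 203, with an upper limit of 1.80%), against 6 of 112 male cells (5.36%, 1.99 to 11.3%). The difference was thus spread over many male cells, and without the 5 cells of highest Il1b in each library the ratio was 0.145 (12 and 46 UMIs left) and still called.

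In nonclassical monocytes, which patrol the vessel wall, the ratio of Il1b was 0.443 (0.266 to 0.725), where 4.76% of genes were called. The shares of cells were closer, 13.2% of female and 15% of male cells after thinning, and 1 male cell held 19 of the 48 male UMIs. Without the highest cell of each library the ratio was 0.597 (0.327 to 1.07) and was not called. It was 0.665 without the 5 highest cells, from 12 and 14 UMIs, and 0.678 with cells named by the marker gate.

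In type 2 dendritic cells, which present antigen to CD4+ T cells, Il1b stood at 14.4 CPM (8 UMIs) in the female and 71.9 CPM (25 UMIs) in the male library. The ratio was 0.200 (0.0778 to 0.456), where 5.13% of genes were called. The highest male cell held 13 of the 25 UMIs. Without the highest cell of each library 6 and 12 UMIs remained, too few for a call, at a ratio of 0.309 (0.0953 to 0.891), and without the highest male cell alone the ratio was 0.411 with an interval that held 1 (0.146 to 1.09). The call in this class therefore rested on 1 male cell. In Aldh1a2-high macrophages Il1b stood at 10.1 CPM (3 UMIs) and 92.7 CPM (39 UMIs), a ratio of 0.108 (0.0214 to 0.341), where 4.1% of genes were called. Here 2 male cells held 34 of the 39 UMIs, at a median depth of 11494 UMIs, and 93 of the 100 male cells held none. The male level of this class therefore rested on 2 cells.

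Neutrophils held Il1b at a ratio of 1.14 (1.01 to 1.28), which was not called, where 8.17% of genes were, and the ratio was 0.992 when suspected doublets were kept. In other macrophages the ratio was 0.870 (0.768 to 0.987), not called, where 3.13% of genes were. By cluster it was 0.812 (0.686 to 0.962) in Tmem119-led, 0.966 (0.649 to 1.44) in Cxcl14-led and 0.905 (0.728 to 1.13) in Mmp12-led macrophages. Without the 5 cells of highest Il1b in each library the ratio was 1.68 (1.19 to 2.39) in Mmp12-led macrophages, on the other side of 1. It was then 0.801 (0.643 to 0.998) in Tmem119-led and 0.819 (0.481 to 1.39) in Cxcl14-led macrophages, and none was called. Without thinning, Il1b was held by 57 of 280 female and 75 of 219 male Tmem119-led cells. These numbers were 29 of 202 and 32 of 207 in Cxcl14-led, and 57 of 155 and 34 of 104 in Mmp12-led macrophages. At a mitochondrial ceiling of 1.2%, the value stated by the study, few cells remained and the ratio in other macrophages was 2.10, with 4.57 in Tmem119-led and 9.99 in Mmp12-led macrophages. The scale of that ceiling could not be settled, so these are not the values that the filter of the study would give. All lymphocytes together held 2.21 CPM (20 UMIs) and 4.86 CPM (21 UMIs) of Il1b, a ratio of 0.454 (0.233 to 0.879), which was called, where 1.34% of genes were, at a level far under that of the myeloid classes. T cells held 3 and 11 of these UMIs, too few for a call, at a ratio of 0.134 (0.0240 to 0.508). The ratio was 1.01 in B cells and 0.751 in NK cells, with intervals that held 1. The neutrophil proportion of S100a8 and S100a9 would put 6.98 and 4.61 Il1b UMIs in lymphocytes, and the part of free RNA in this call was not tested. Over all cells, Il1b stood at 78.8 CPM in the female and 136.5 CPM in the male library, and this level depends on how many cells of each class were captured.

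Macrophages were also split by their MHC class II level, since few male other macrophages were low in it. Cells with at most 10 MHC class II UMIs per 1000 numbered 169 in the female and 18 in the male library. In these low cells Il1b stood at 186.2 CPM (143 UMIs) and 437 CPM (35 UMIs), a ratio of 0.426 (0.293 to 0.636), which was called, where 7.51% of genes were. In the high cells it stood at 188.2 and 206.5 CPM, a ratio of 0.911 (0.793 to 1.05), where 2.81% of genes were called. In the female library the summed Il1b levels of low and high cells were thus alike within counting error. This likeness leaned on 1 low cell with 37 of the 143 UMIs, since 106 UMIs in 168 cells remained without it and the low cells then lay lower. The male value came mainly from 11 Tmem119-led cells with 34 UMIs. Of these 11 cells 9 held Il1b, the highest with 8 UMIs, whereas 1 of the 124 female cells held 37 of 131 UMIs. In all low cells together the ratio was 0.405 (0.263 to 0.643) without the highest cell of each library and still called. It was 0.543 without the highest male cell and 0.740 (0.316 to 2.12) without the 5 highest cells of each library, and neither was called. Among Tmem119-led low cells Il1b stood at 215.6 and 1216 CPM, a called ratio of 0.177 (0.121 to 0.267), where 7.56% of genes were called. This ratio stayed called in each omission of the highest cells, between 0.128 and 0.220, though only 5 male UMIs were left without the 5 highest cells.

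Genes that tissue digestion is known to raise were summed in each class, and the sum was lower in the female library in 15 of 17 classes, with and without a called Il1b ratio. For 14 such genes, among them Fos, Jun, Hspa1a and Hspa1b, the summed level was 3869 CPM in female and 5372 CPM in male classical monocytes, 4570 and 5042 in nonclassical monocytes, 3290 and 4331 in type 2 dendritic cells and 4669 and 6170 in Aldh1a2-high macrophages. In neutrophils it was 32468 and 41440 CPM, the highest of all classes, and in other macrophages 1388 and 1425 CPM. The sums were lower by a similar factor in neutrophils (0.783) as in classical monocytes (0.720), Aldh1a2-high macrophages (0.757) and type 2 dendritic cells (0.760), while it was 0.975 in other macrophages. Other classes had too few Il1b UMIs for a call, so their factor cannot be set beside an Il1b ratio. It was 0.758 in Lyve1-high macrophages, 0.662 in type 1 dendritic cells, 0.797 in NK cells, 0.833 in T cells and 0.876 in B cells. In innate lymphoid cells, also with too few Il1b UMIs, the factor was above 1 (1.03). It was also above 1 in Cxcl14-led macrophages (1.07), whose Il1b ratio was tested and not called. Over all cells it was 0.719. In MHC class II low macrophages the sums were 1580 and 3259 CPM. Of these genes, 3 of the 13 tested were called in classical monocytes (3.73% of all genes), 3 of 13 in Aldh1a2-high macrophages (4.1%), 2 of 13 in type 2 dendritic cells (5.13%), 1 of 9 in nonclassical monocytes (4.76%), 2 of 12 in neutrophils (8.17%) and 3 of 11 in NK cells (1.58%), all of them lower in the female library. In MHC class II low macrophages 4 of 12 were called lower (7.51%), and among their Tmem119-led cells 10 of 12 (7.56%). None of 14 was called in all other macrophages together (3.13%), and in innate lymphoid cells (6.89%) 2 of 9 were called higher in the female library. Lyve1-high macrophages (4.64%), B cells (2.59%) and T cells (1.69%) had 1 gene each called lower, of 13, 10 and 11. The same genes were also counted in the thinned cells with and without an Il1b UMI. In other macrophages the share of cells with the gene was higher among the 60 cells with Il1b for 14 of 14 genes in each library. Egr1 was found in 9 of 60 female cells with Il1b and in 9 of 568 without it, and Ier3 in 6 of 60 male cells with Il1b and in 3 of 465 without it. By cluster, 13 shares were higher and 1 lower in Tmem119-led macrophages of each library. In Mmp12-led macrophages 9 were higher and 4 lower in the female library, and 8 and 5 in the male. In Cxcl14-led macrophages these numbers were 9 and 4, and 11 and 1. In male classical monocytes 12 of the 14 shares were higher among the 18 cells with Il1b, Dusp1 being found in 12 of them and in 30 of the 89 others. Only 4 thinned female classical monocytes had Il1b, and among them 1 share was higher and 11 were lower. In nonclassical monocytes, with 9 such cells in each library, 7 shares were higher and 6 lower in the female library, and 8 and 5 in the male. The part of digestion in the difference of Il1b between the libraries was not tested.

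**Figure D3:**
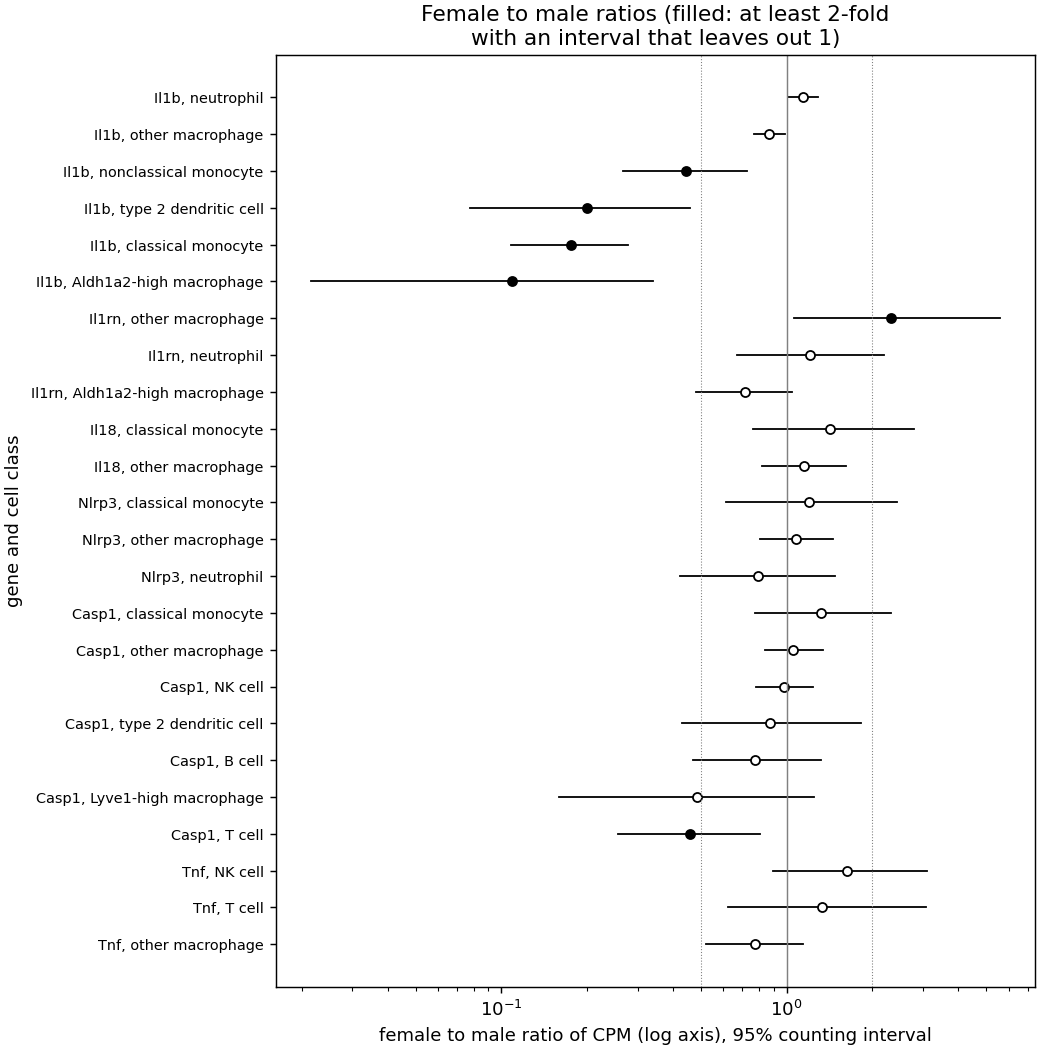
Female to male ratio of CPM (log axis) with its 95% counting interval for each of the 8 genes in each class with enough UMIs, filled where the ratio is at least 2-fold and the interval leaves out 1, with dotted lines at 2-fold. The filled points are Il1b in 4 classes and Casp1 in T cells below 1, and Il1rn in other macrophages above 1.

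Il1rn, the receptor antagonist, followed another order of classes than Il1b. It was highest in neutrophils, at 325.9 CPM (27 UMIs) in the female and 269.8 CPM (24 UMIs) in the male library, a ratio of 1.21 (0.671 to 2.19). Aldh1a2-high macrophages came next, at 144.1 CPM (104.3 to 194.1, 43 UMIs) and 202.1 CPM (161.4 to 249.9, 85 UMIs), and in the male library their interval overlapped that of neutrophils (172.8 to 401.4). Other macrophages held 9.47 CPM (27 UMIs) and 4.08 CPM (9 UMIs), classical monocytes 13.03 and 15.8 CPM, and B and T cells held no Il1rn UMI. Aldh1a2-high macrophages therefore exceeded every other macrophage cluster, and they carried 37.1% (28.3 to 46.5%) of the female and 63.4% (54.7 to 71.6%) of the male Il1rn UMIs.

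Within the Aldh1a2-high cluster, Il1rn was again uneven. After thinning, 5.19% of female and 7.45% of male cells had an Il1rn UMI (12.5% and 23.0% without thinning), against 27.5% and 22.0% of neutrophils. Cells with at least 5 Il1rn UMIs numbered 2 in the female and 3 in the male library, with 27 of the 43 and 50 of the 85 UMIs, and the highest held 21 and 31. The ratio of 0.713 (0.482 to 1.04) was not called, and it ranged from 0.317 to 1.11 over the alternatives. Without the 5 highest cells of each library it was 0.383 (0.141 to 0.902) and was called lower in the female library. It was 0.373 and called without the highest female cell alone, but 1.12 and not called without the highest male cell alone. In other macrophages Il1rn was called higher in the female library, 2.32-fold (1.06 to 5.6), from 27 against 9 UMIs. The ratio was 1.79 with suspected doublets kept and 1.89 with cells named by the marker gate, both short of 2-fold. It was 2.89 as the mean of the CPM of single cells and 4.36 without the 5 highest cells of each library, the latter from 17 and 3 UMIs, under the minimum for a call. All 9 Il1rn UMIs of Cxcl14-led macrophages were female.

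Set against each other in the same cells, Il1b exceeded Il1rn in all classes but the Aldh1a2-high macrophages, among those with 20 UMIs of the pair. Both were counted as UMIs at the 3' end, so gene length does not enter. Neutrophils held 20.4 (13.9 to 31.3) Il1b UMIs per Il1rn UMI in the female and 21.7 (14.4 to 34.2) in the male library, nearly the same. Tmem119-led macrophages held 42.4 and 88, from only 7 and 3 Il1rn UMIs. Aldh1a2-high macrophages held 0.0698 (0.0139 to 0.218) and 0.459 (0.306 to 0.678), so that in both libraries the antagonist was the more abundant transcript. Classical monocytes held 2.50 (1.16 to 5.83) and 11.7 (5.44 to 30.1).

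**Figure D4:**
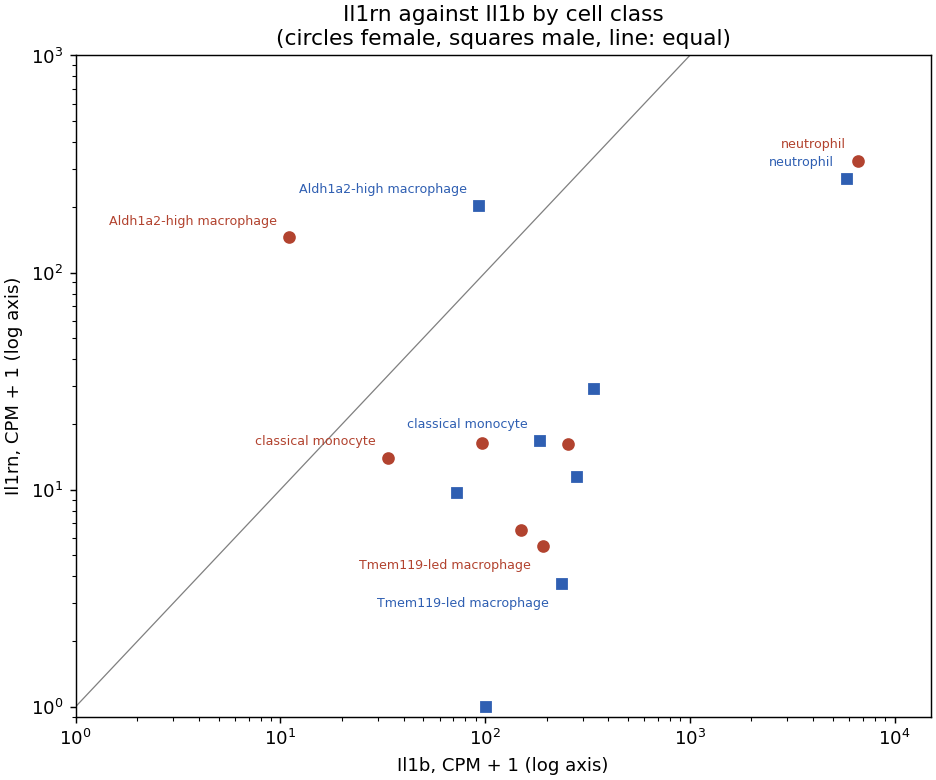
Il1rn against Il1b, both as CPM + 1 on log axes, for each class with at least 20 UMIs of the pair, as circles for the female and squares for the male library, with the line of equal levels. The Aldh1a2-high macrophages are the class above the line, at 144.1 against 10.1 CPM in the female and 202.1 against 92.7 CPM in the male library.

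Il1a was nearly undetected. It had 6 UMIs in the female and 11 in the male library over all cells, of which macrophages held 4 and 10 and endothelial cells 2 and 1. No Il1a UMI was counted in neutrophils, monocytes, dendritic cells or lymphocytes. In neutrophils this allows a level of up to 36.2 CPM in the female and 33.7 CPM in the male library (the level of 3 UMIs), far under their Il1b level. The sex ratio of Il1a could not be assessed at this depth.

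Il18, unlike Il1b, was not counted in neutrophils and lay at similar levels in classical monocytes, type 1 dendritic cells and the other macrophages. Neutrophils had 0 Il18 UMIs in both libraries, with the same limits of 36.2 and 33.7 CPM, which lie near the macrophage level, so that a level like that of macrophages was barely detectable. Classical monocytes stood at 48.2 CPM (33.9 to 66.5, 37 UMIs) in the female and 33.9 CPM (19.0 to 55.9, 15 UMIs) in the male library. The 3 clusters of other macrophages ranged from 29.2 to 38.9 CPM in the female and from 21.5 to 36.6 CPM in the male library, and type 1 dendritic cells held 35.2 and 34.3 CPM. Neighbors in this order did not differ beyond their intervals.

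Lyve1-high macrophages held 8.20 CPM (0.993 to 29.6, 2 UMIs) and 7.64 CPM (1.58 to 22.3, 3 UMIs), intervals that overlapped those of other macrophages (26.0 to 39.6 and 21.6 to 36.0). Nonclassical monocytes held 2 and 0 Il18 UMIs. B cells stood at 6.22 and 5.58 CPM, and T cells had no Il18 UMI in either library. Thinned other macrophages had an Il18 UMI in 2.71% of female and 3.81% of male cells (12.7% and 9.81% unthinned), against 0.402% and 0.397% of B cells. No sex ratio of Il18 was called. It was 1.15 (0.822 to 1.61) in other macrophages, and 1.42 (0.762 to 2.79) in classical monocytes, intervals that still hold differences of over 1.5-fold. At the mitochondrial ceiling of 1.2% these ratios were 0.225 and 4.80, with the limit given above for that value.

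Nlrp3, the sensor whose assembly recruits caspase-1 through the adaptor Pycard, was again highest in neutrophils, at 241.4 CPM (20 UMIs) in the female and 303.5 CPM (27 UMIs) in the male library. Tmem119-led macrophages held 48.4 CPM (75 UMIs) and 42.0 CPM (47 UMIs), classical monocytes 37.8 and 31.6 CPM, and Lyve1-high macrophages 36.9 and 28.0 CPM. Lyve1-high macrophages, which were low in Il1b, thus held Nlrp3 at a level like that of other macrophages (40.7 and 37.6 CPM). Aldh1a2-high macrophages had 0 and 2 UMIs of Nlrp3, and all lymphocytes together 7 and 4. After thinning, 30.0% of female and 31.7% of male neutrophils had an Nlrp3 UMI, against 3.34% and 4.38% of other macrophages. Among the thinned neutrophils with Il1b, 11 of 35 female and 12 of 35 male cells also had Nlrp3, and 9 of 35 in each library had Il1rn. Few thinned neutrophils lacked Il1b, 5 female and 6 male cells, of which 1 and 1 had Nlrp3 and 2 and 0 had Il1rn, too few for a comparison. The sex ratio of Nlrp3 was 0.795 (0.423 to 1.47) in neutrophils and 1.08 (0.808 to 1.45) in other macrophages, and neither was called.

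Casp1, which encodes the protease itself, was spread over myeloid and lymphoid classes and did not follow Nlrp3. Other macrophages stood at 61.3 CPM (175 UMIs) in the female and 58.0 CPM (128 UMIs) in the male library, and NK cells at 56.8 CPM (232 UMIs) and 58.0 CPM (113 UMIs). NK cells, which were 23.4% of female and 15.1% of male cells, thereby carried 38.7% of the female and 27.8% of the male Casp1 UMIs. They held almost no Il1b, Il18 or Nlrp3. Classical monocytes stood at 62.5 and 47.4 CPM, type 2 dendritic cells at 37.7 and 43.2 CPM, and B cells at 27.1 and 34.9 CPM. Neutrophils, which led for Il1b, Il1rn and Nlrp3, had only 2 Casp1 UMIs in each library, 24.1 and 22.5 CPM with upper limits of 87.2 and 81.2 CPM, so a level like that of macrophages could not be told from a lower one.

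The sex ratio of Casp1 was close to 1 where counts were high, at 1.06 (0.837 to 1.34) in other macrophages and 0.981 (0.780 to 1.24) in NK cells. In T cells it was called lower in the female library, at 9.04 CPM (26 UMIs) against 19.8 CPM (28 UMIs), a ratio of 0.457 (0.257 to 0.808), where 1.69% of genes were called. After thinning, 0.606% of female and 1.69% of male T cells had a Casp1 UMI. This ratio was 0.531 (0.293 to 0.965) without the highest male cell, which held 4 UMIs, and was then not called. Without the highest cell of each library it was 0.491 and still called. It was 0.582 without the 5 highest cells of each library, from 19 and 16 UMIs, too few for a call. At the mitochondrial ceiling of 1.2% it was 2.18, with the limit given above for that value. In Lyve1-high macrophages Casp1 stood at 24.6 CPM (6 UMIs) and 50.9 CPM (20 UMIs), with an interval of the ratio that held 1 (0.159 to 1.25), where 4.64% of genes were called.

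**Figure D5:**
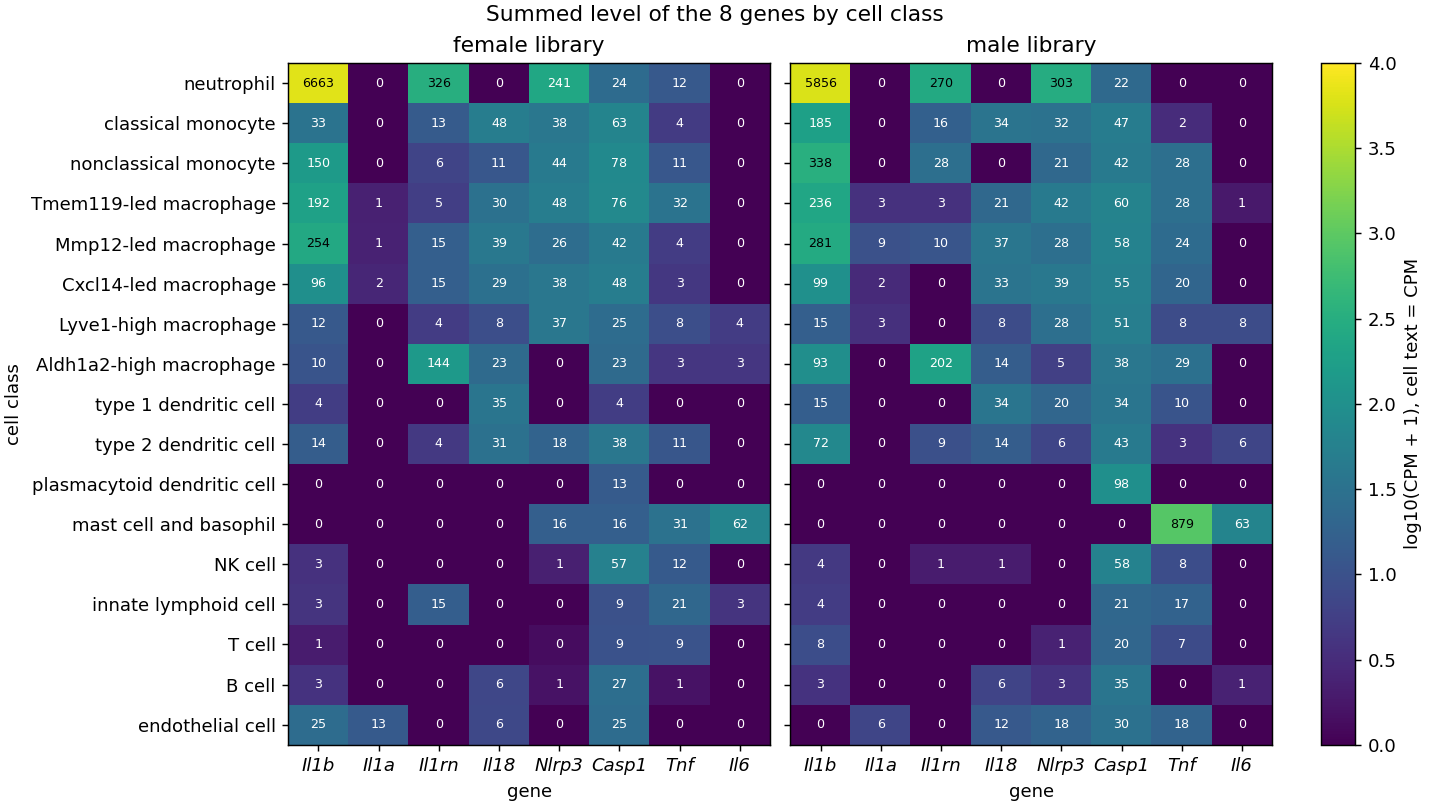
Summed level of the 8 genes in 17 cell classes of the female and the male library, shaded by log10(CPM + 1) and with the CPM written in each field. Il1b, Il1rn and Nlrp3 are highest in neutrophils, Casp1 reaches across macrophages, monocytes, NK and B cells, and Il1a and Il6 are near 0 in most classes.

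Tnf encodes a cytokine that activates endothelium and leukocytes through its receptors and is made by macrophages and by lymphocytes. It was low and shared by both here. Tmem119-led macrophages held 32.3 CPM (50 UMIs) in the female and 27.7 CPM (31 UMIs) in the male library, innate lymphoid cells 20.7 CPM (7 UMIs) and 16.8 CPM (4 UMIs), NK cells 12.5 CPM (51 UMIs) and 7.69 CPM (15 UMIs), and T cells 9.38 and 7.07 CPM. Lymphocytes carried 51.8% of the female and 22.7% of the male Tnf UMIs, and macrophages 34.9% and 54.7%. Of all cells, 58.8% and 44.4% were lymphocytes, and 22.3% and 32.6% were macrophages. Neutrophils had 1 and 0 Tnf UMIs and classical monocytes 3 and 1, although both held Il1b. In male neutrophils the limit given above for 0 UMIs lies above the level of Tmem119-led macrophages. The 1 female UMI is also too few to place neutrophils lower, so a level like that of macrophages could not be told from a lower one.

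Cxcl14-led, Mmp12-led and Aldh1a2-high macrophages had 2, 3 and 1 Tnf UMIs in the female library and 10, 14 and 12 in the male library, too few for a call. In other macrophages together the ratio was 0.773 (0.522 to 1.14). It was 1.62 (0.899 to 3.11) in NK cells, where 1 female cell held 16 of the 51 UMIs, and 1.33 (0.623 to 3.07) in T cells, and none was called. The mast cell and basophil class had 2 and 14 Tnf UMIs, and all 14 male UMIs lay in 1 of its 6 cells. Among thinned Tmem119-led macrophages, Tnf was found in 5 of 29 male cells with Il1b and in 1 of 188 without it, and in 2 of 25 and 6 of 250 female cells.

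Il6 was nearly undetected, with 7 UMIs in the female and 8 in the male library. The mast cell and basophil class held 4 and 1 of them, 62.0 and 62.8 CPM, Lyve1-high macrophages 1 and 3, and no Il6 UMI was counted in neutrophils or monocytes. At this depth Il6 could not be compared between the libraries.

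Genes of the receptors showed an order of classes of their own. Of 11 genes for IL-1 family receptors, decoys and further ligands, 10 were in the files under the symbols used. Il1r2, a decoy receptor that binds IL-1 without signaling, stood at 289.7 CPM (24 UMIs) in female and 325.9 CPM (29 UMIs) in male neutrophils, the class with most Il1b. Il1r1, the signaling receptor, had only 11 UMIs in each library over all cells. The IL-18 receptor chain Il18r1 stood at 137.2 and 149.7 CPM in NK cells and 62.6 and 83.4 CPM in T cells, and the other chain Il18rap at 159.7 and 182.6 CPM in NK cells and 241.4 and 314.7 CPM in neutrophils. Il1rl1, the receptor of IL-33, led in the mast cell and basophil class at 2217 and 1507 CPM, and stood at 481.7 and 399.9 CPM in innate lymphoid cells and 214.5 and 164.1 CPM in Aldh1a2-high macrophages.

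Between the libraries, 1 receptor gene of the 4 with enough UMIs was called in other macrophages (3.13% of all genes), Il18rap, at 7.01 CPM (20 UMIs) in the female and 1.81 CPM (4 UMIs) in the male library. NK cells and neutrophils held far more Il18rap, as given above, and the part of their RNA or of doublets in this call was not tested. In innate lymphoid cells 1 of 2 was called, Il18r1, at 127.1 CPM (43 UMIs) and 58.9 CPM (14 UMIs), where 6.89% of genes were called. In Mmp12-led macrophages (3.39%) the 1 gene tested was called lower in the female library, Il18bp, a secreted binder of IL-18, at 16.6 CPM (12 UMIs) and 36.6 CPM (21 UMIs). In all lymphocytes together (1.34%) 1 of 7 was called, Il1rl2, at 2.87 CPM (26 UMIs) and 0.926 CPM (4 UMIs). None of the 2 in neutrophils (8.17% of all genes) or the 4 in NK cells (1.58%) was called.

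Of 17 inflammasome and pyroptosis genes, Pycard, the adaptor between sensor and caspase-1, stood at 305.0 CPM (91 UMIs) in female and 306.7 CPM (129 UMIs) in male Aldh1a2-high macrophages, which had almost no Nlrp3. It stood at 258.4 and 227.2 CPM in NK cells and at 178.1 and 181.4 CPM in other macrophages, and no Pycard UMI was counted in neutrophils of either library. Gsdmd, the pore former that caspase-1 cuts, stood at 61.2 and 76.8 CPM in classical monocytes and 38.2 and 45.4 CPM in other macrophages. In other macrophages, where 3.13% of all genes were called, 1 of 15 such genes was called, Naip2, a sensor of bacterial secretion systems, at 63.1 CPM (180 UMIs) and 31.3 CPM (69 UMIs). In classical monocytes (3.73% of all genes) 1 of 11 was called, Naip5, at 57.3 CPM (44 UMIs) and 27.1 CPM (12 UMIs). In neutrophils (8.17%) 1 of 2 was called, Nlrp12, at 60.3 CPM (5 UMIs) and 258.5 CPM (23 UMIs). By cluster, 3 of 15 were called in Tmem119-led macrophages, where 4.69% of all genes were. These were Naip2, at 78.1 against 38.4 CPM, the channel gene Panx1, at 21.9 CPM (34 UMIs) against 8.94 CPM (10 UMIs), and, lower in the female library, the sensor Nlrp1b, at 8.39 CPM (13 UMIs) against 18.8 CPM (21 UMIs). In Mmp12-led macrophages, where 3.39% were called, 2 of 8 were, Naip2, at 54.1 against 20.9 CPM, and, lower in the female library, Gsdmd, at 26.4 CPM (19 UMIs) against 59.3 CPM (34 UMIs). The median log2 ratio of the list was 0.04 in other macrophages, where that of all genes tested was -0.01.

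The TNF and IL-6 receptor list (10 genes) had no call in other macrophages among 9 tested, none among 6 in classical monocytes and none among 3 in neutrophils, where 3.13%, 3.73% and 8.17% of all genes were called. In type 2 dendritic cells (5.13% of all genes) 2 of 5 were called, Adam17, the protease that sheds TNF, at 30.5 CPM (17 UMIs) in the female and 66.2 CPM (23 UMIs) in the male library, and Traf1, a TNF receptor adaptor, at 61.0 CPM (34 UMIs) and 25.9 CPM (9 UMIs). In Cxcl14-led macrophages, where 4.5% of genes were called, 1 of 4 was, Il6ra, at 68.7 CPM (40 UMIs) and 31.2 CPM (16 UMIs). Tnfrsf1b, a TNF receptor of leukocytes, stood at 1113 CPM (201 UMIs) in female and 1034 CPM (147 UMIs) in male nonclassical monocytes, above the 340.1 and 445.0 CPM of classical monocytes. Il6ra, which binds IL-6, was called higher in female B cells, at 28.3 CPM (50 UMIs) against 14.0 CPM (10 UMIs), where 2.59% of genes were called. Lta, a relative of TNF, had 21 and 1 UMIs in NK cells (1.58% of all genes called) and was called higher in the female library, as 1 of 7 genes tested there. Il6ra was 1 of 8 tested in B cells.

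Of 11 genes of the NF-kB pathway, which drives Il1b, Tnf and Il6 in myeloid cells, none of 10 tested was called in other macrophages (3.13% of all genes). By cluster, Rel, a subunit of NF-kB, was called lower in the female library in Cxcl14-led macrophages (1 of 5, with 4.5% of all genes called), at 20.6 CPM (12 UMIs) against 46.8 CPM (24 UMIs). When split by MHC class II, 1 of 6 was called in low macrophages (7.51%), Nfkbia, higher in the female library, and 1 of 6 in their Tmem119-led cells (7.56%), Nfkbiz, lower. In both monocyte classes together, where 3.08% of genes were called, 2 of 10 were. Nfkbiz, a nuclear cofactor of NF-kB, was lower in the female library, at 61.2 CPM (58 UMIs) against 124.8 CPM (73 UMIs). Nfkbiz was called in nonclassical monocytes, at 144.0 CPM (26 UMIs) against 288.3 CPM (41 UMIs), as 1 of 5 genes of the list (4.76% of all genes). It was not called in classical monocytes, at 41.7 against 72.3 CPM (32 UMIs each), where 0 of 9 were. Relb, another subunit, was higher in both monocyte classes together, at 32.7 CPM (31 UMIs) against 13.7 CPM (8 UMIs). In neutrophils (8.17% of all genes) 1 of 4 was called, Ptgs2, the inducible cyclooxygenase, at 422.4 CPM (35 UMIs) against 899.2 CPM (80 UMIs), lower in the female library in the class whose Il1b was not. These 35 and 80 UMIs were nearly all Ptgs2 UMIs of the libraries, 37 and 81. Nfkbia, the inhibitor that NF-kB induces, stood at 591.4 and 708.1 CPM in neutrophils and was not called.

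The genes whose levels were most like each member over 34 points (17 classes in 2 libraries, as log2 of CPM + 10) were found by Pearson's r, given as a description, since the points share libraries and differ in depth. Members with under 100 UMIs in all, Il1a and Il6, were left out. For Il1b the nearest were Adipor1 (r = 0.874), Cxcl2 (0.872), a chemokine for neutrophils, Pfkfb4 (0.865), Gm5150 (0.857) and Msrb1 (0.851). Cebpe (0.904) and Aqp9 (0.848) were nearest to Il1rn, Hk3 (0.875) and Pfkfb4 (0.860) to Nlrp3, and Tbc1d9 (0.90) and BC028528 (0.871) to Il18. The values for Casp1 were lower, with Sh3bp2 (0.732) first. Mcpt8 (0.766), a basophil protease, was first for Tnf, whose highest point was that of the male mast cell and basophil class, with its 14 UMIs in 1 cell.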

How the data were processed

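Live CD45+ cells of female and male adrenal glands were profiled with the Chromium Single Cell 3' kit (chemistry 3.1). The deposited values are raw UMI counts per gene and barcode, which the authors made with Cell Ranger 4.0.0 on build mm10 and filtered for empty droplets with DropletUtils 1.4.3, per the submitters' processing notes. The study clustered cells with Seurat 3.1.0.

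From these counts, barcodes with at least 200 genes and at most 15% mitochondrial UMIs were kept. The study states a ceiling of 1.2%, which leaves 333 of 3963 female and 366 of 2685 male barcodes (8.40% and 13.6%), far fewer cells than the study describes after filtering, so the scale of that value could not be settled. Doublets were scored with Scrublet in scanpy 1.11.5. Its automatic threshold marked 1 female and 8 male barcodes, so the highest scores were removed at 0.8% per 1000 barcodes (123 and 53 barcodes). Libraries were transformed with sctransform 0.4.2, integrated on 2000 features and clustered in Seurat 5.3.0 (R 4.3.3) from 20 principal components at resolution 1, with 88 genes held out, among them the 8 genes, the pathway lists and MHC class II genes. Classes were named from marker lists, and these rebuilt names can differ from those of the study. An unnamed low-UMI cluster (66 female and 139 male cells) and a proliferating cluster (32 and 14) entered no class.

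UMIs were summed per class as CPM with exact Poisson intervals. Shares of cells carry exact Clopper-Pearson intervals, after thinning to 1000 UMIs, with shallower cells left out. Ratios carry exact conditional binomial intervals, all at 95%. A count of 0 was given the limit of 3 UMIs. With 1 library per sex no test across animals was possible. All 8 genes are named in every class, and other genes by the call rule, by at least 20 UMIs in a library of the class, or as the 5 most like in pattern. The genes, lists and rules were chosen with earlier results of these data known. Alternatives were mitochondrial ceilings of 5% and 1.2%, at least 500 genes, doublets kept, resolution 0.5, a marker gate per cell, mean cell CPM, omission of the 5 highest cells, thinning to 500 or 2000 UMIs and, chosen after seeing the data, omission of the highest cell of each library and of other cells with at least 20 S100a8 and S100a9 UMIs. Python 3.11.15, numpy 2.4.6, pandas 2.3.3, scipy 1.17.1 and matplotlib 3.10.9 were used.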

Additional observations from a re-analysis of the deposited data

Results flagged for a closer look

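The female to male ratio of Il1b was 1.14 in neutrophils but 0.176 in classical monocytes, 0.443 in nonclassical monocytes, 0.200 in type 2 dendritic cells and 0.108 in Aldh1a2-high macrophages. These ratios lie on different sides of 1, but the neutrophil ratio was not called, and with suspected doublets kept it was just below 1. Outside classical monocytes the calls rested on very few male cells, as given above. With 1 library per sex the difference between classes was not tested.

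Barcodes outside the named classes also held UMIs of these genes, in counts whose interval lay above 3 UMIs. In the unnamed low-UMI cluster of the male library Il1b stood at 87.7 CPM (10 UMIs) and Nlrp3 at 70.1 CPM (8 UMIs). Among the barcodes removed by the filters, Il1b stood at 69.9 CPM in the female and 92.3 CPM in the male library, and Casp1 at 42.6 and 44.1 CPM. In the removed female barcodes Il18 stood at 11.9 CPM, Nlrp3 at 19.6 CPM and Tnf at 9.38 CPM. The makeup of these barcodes was not analysed here.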

How the results depend on the processing

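The 42 ratios were recomputed under 10 alternatives, which gave 381 values, of which 360 stayed within counting error of the reported one, 20 moved and 1 reversed. A value counted as reversed only where the reported ratio was called. Uncalled ratios that crossed 1 counted as moved, or as unchanged if within counting error, so more than the reversed value changed side. At a mitochondrial ceiling of 1.2%, whose scale in the study could not be settled, the ratio of Il1b in other macrophages was 2.10 (0.870 as reported), and that of Casp1 in T cells was 2.18 (0.457 as reported), the reversed value. With doublets kept the ratio of Il1b in neutrophils was 0.992 (1.14 as reported). At that ceiling the ratio of Il18 was also 0.225 in other macrophages and 4.80 in classical monocytes, and that of Casp1 0.525 and 0.533. The ratio of Casp1 in Lyve1-high macrophages was 0.126 without the 5 highest cells. The cause of these changes was not tested. Without the highest cell of each library, Il1b in nonclassical monocytes was not called (0.597), and in type 2 dendritic cells and Aldh1a2-high macrophages under 20 UMIs remained (0.309 and 0.170). Over the listed alternatives the ratio of Il1b ranged from 0.145 to 0.223 in classical monocytes and from 0.405 to 0.678 in nonclassical monocytes. It ranged from 0.164 to 0.309 in type 2 dendritic cells (0.121 without the 5 highest cells, where 1 female UMI was left). In Aldh1a2-high macrophages it ranged from 0.0669 to 0.176, and no value was left without the 5 highest cells, since no female Il1b UMI remained. Omission of the highest male cell alone was not among these alternatives. It gave 0.411 in type 2 dendritic cells, 0.722 in nonclassical monocytes and 0.253 in Aldh1a2-high macrophages. Omission of the highest female cell alone gave 0.150, 0.366 and 0.0727 in the same order. Of 48 shares thinned to 500 or 2000 UMIs, 24 moved, since a share of cells with a UMI depends on the depth kept. Resolution 0.5 merged both monocyte classes and the 3 clusters of other macrophages, and the marker gate does not separate those 3, so these gave no value. No paired analysis was possible because each sex has 1 library and the labels carry no replicate numbers. Il1a and Il6, with at most 11 UMIs per library, allow no comparison.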
